A study of Homo sapiens with 10 samples.

Results

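The genes of chromosome 21 are described here as 1 block, gene by gene along the chromosome, in 10 samples of an edited lymphoma cell line. The members are the rows of the counts table that GENCODE release 29 places on chromosome 21, without the ribosomal, proteasome and respiratory-chain families (names that start with MRP, NDUF, ATP5, PSM, RP or SNOR) and without MX1, MX2, ADARB1 and CHAF1B. That leaves 792 of the 58721 rows, out of 833 rows on the chromosome. Of the 792, 459 had no read in any sample and 636 were not kept by the low-count filter. The 132 members that passed it with a mean of at least 1 CPM (counts scaled to a common library size) are called measured below, 100 of them protein-coding, and 24 more passed it at a lower level. Within each genotype, a set A made up of replicates 1 and 4 of wild-type and replicates 1 and 3 of R475C is compared with the other 6 samples, called set B. The 4 samples of set A were chosen by expression levels measured in these same data, so the size of the difference between the sets is a description and carries no test.

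RNA with a poly(A) tail was sequenced from single-cell clones of the lymphoma line that the labels call U2392, to compare R475C with wild-type DDX3X, an RNA helicase gene on the X chromosome. Both groups had been electroporated with a Cas9 and guide RNA plasmid plus a double-stranded repair template. In 4 samples the template carried R475C, and in 6 it carried the wild-type residue. Silent changes that alter the PAM and add a SpeI cutting site were in both templates, and both groups were sorted for GFP and expanded from single cells in RPMI medium. The labels do not say which replicates come from the same clone, so the p-values reflect no more than the spread among these libraries, part of which may be technical. Set A and set B are not named in the labels, and no batch or date is given for either. DNA copy number was not measured.

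Depth ran from 8928539 counts in R475C replicate 4 to 53779005, and mitochondrial genes took 3.98% to 5.62% of counts. DDX3X lay between 357 and 551 CPM in wild-type and between 754 and 1047 CPM in R475C, but a change of 1 residue need not move the level, so this does not check the labels. Of the B-cell markers, MS4A1 lay between 1361 and 2168 CPM over the samples, CD79A between 481 and 699.8 CPM, CD79B between 266 and 441 CPM and PAX5 between 457 and 668 CPM. T-cell and myeloid marker sums stayed at or under 8.50 CPM, and CD3D, CD3G, COL1A2 and KRT18 were at 0 in every sample. The summed fibroblast markers COL1A1, COL1A2, DCN and LUM were 0.155 to 0.640 CPM in set A and 2.80 to 20.1 CPM in set B. The epithelial sum, nearly all EPCAM, was 26.8 to 37.2 CPM in set A and 16.4 to 26.5 CPM in set B. Both of these move with the sets, and their part in the chromosome 21 difference was not tested.

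Chromosome 21 is the smallest human autosome, and nearly all of its protein-coding genes lie on the long arm. Cells with an extra copy usually make more RNA from most of its genes, roughly in proportion to the copies, while some genes are buffered by feedback or respond to other signals. The long arm holds a cluster of interferon and cytokine receptor genes, the chaperonin subunit gene CCT8, SOD1, the haematopoietic transcription factor RUNX1 and the kinase DYRK1A.

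The stretch of DNA just before the start of a gene is printed for 3 members that the results turn on, with every CG dinucleotide in capitals. CCT8 has one of the widest set differences, LSS has a difference near 0 in the opposite direction, and USP25 differs by genotype. The sequences are from RefSeq (GRCh38.p14), cut where they reach the RefSeq start or the GENCODE gene.
CCT8: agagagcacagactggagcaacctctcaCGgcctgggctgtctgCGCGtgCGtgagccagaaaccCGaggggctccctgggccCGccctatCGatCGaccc
LSS: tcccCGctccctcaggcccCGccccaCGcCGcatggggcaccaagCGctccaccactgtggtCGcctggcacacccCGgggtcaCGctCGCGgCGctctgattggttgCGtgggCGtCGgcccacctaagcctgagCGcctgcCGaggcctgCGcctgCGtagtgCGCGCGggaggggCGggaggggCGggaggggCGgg
USP25: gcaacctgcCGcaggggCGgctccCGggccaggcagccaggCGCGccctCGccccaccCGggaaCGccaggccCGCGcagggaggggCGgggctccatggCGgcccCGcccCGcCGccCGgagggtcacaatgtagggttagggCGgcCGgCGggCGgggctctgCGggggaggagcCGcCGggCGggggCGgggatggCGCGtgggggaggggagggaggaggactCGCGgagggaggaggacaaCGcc
The CCT8 stretch is chr21:29073798-29073898 on the minus strand, the LSS stretch chr21:46228825-46229024 on the minus strand, and the USP25 stretch chr21:15729732-15729981 on the plus strand. They hold 8, 24 and 30 CG dinucleotides in 101, 200 and 250 bases. The letters GGGCGG, the core of the GC box, were found 1, 4 and 8 times, counting both strands, and each match overlaps a CG in capitals. The letters CCAAT were found once in LSS, in the reverse direction, and not in the other two stretches.

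Over the full 250 bases before the RefSeq start, 87 of the 132 measured members had an entry. Their median was 25 CG dinucleotides against 11 over all 35116 RefSeq entries. GGGCGG was present on either strand in 59.8% of them and in 42.6% of all entries, and CCAAT in 28.7% and 32.0%. The members had passed a level filter and the full list of entries had not, so the comparison is not like for like. Split by the set difference, into groups defined further on, the members near the chromosome median (57), nearer to zero (15) and beyond it (15) had medians of 28, 25 and 25 CG dinucleotides. GGGCGG was present in 64.9%, 46.7% and 53.3% of these groups, and CCAAT in 22.8%, 33.3% and 46.7%. These shares describe letters in a window and are given without a test.

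The chromosome as a whole stood higher in set A in every sample. The members took 0.900% and 0.874% of all counts in wild-type replicates 1 and 4, and 0.900% and 0.905% in R475C replicates 1 and 3. In set B they took 0.603%, 0.595%, 0.626% and 0.605% in wild-type replicates 2, 3, 5 and 6, and 0.597% and 0.611% in R475C replicates 2 and 4. The sets did not overlap in either genotype, and within a set the genotypes lay close, at 0.887% ± 0.0189 (SD, n = 2) in wild-type and 0.902% ± 0.00349 (n = 2) in R475C for set A. In bulk RNA, more cells that make a transcript and more RNA per cell cannot be told apart.

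Per gene, the set difference is the mean log2 CPM of set A minus that of set B, taken within each genotype, and d is the mean of the wild-type and R475C differences. The median over the 132 measured members was 0.56 in wild-type (1.48-fold) and 0.66 in R475C (1.58-fold). The median d was 0.62 (1.54-fold), with the middle 50% of members between 0.40 and 0.84. Over the 14419 measured genes of other chromosomes it was 0.00, with the middle 50% between -0.20 and 0.19. For scale only, a ratio of 3 to 2 is 1.5-fold, or 0.58 on the log2 scale.

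Of the 23 chromosomes compared, 21 ranked second by median d. Chromosome 10 was higher, at 0.78 over 515 genes, and there the difference sat on 1 side: the 390 genes toward the long arm had a median of 0.93 and the 125 toward the short arm -0.02. Chromosome 3 came next at 0.09, and the remaining 20 lay between -0.04 and 0.03.

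**Figure D1:**
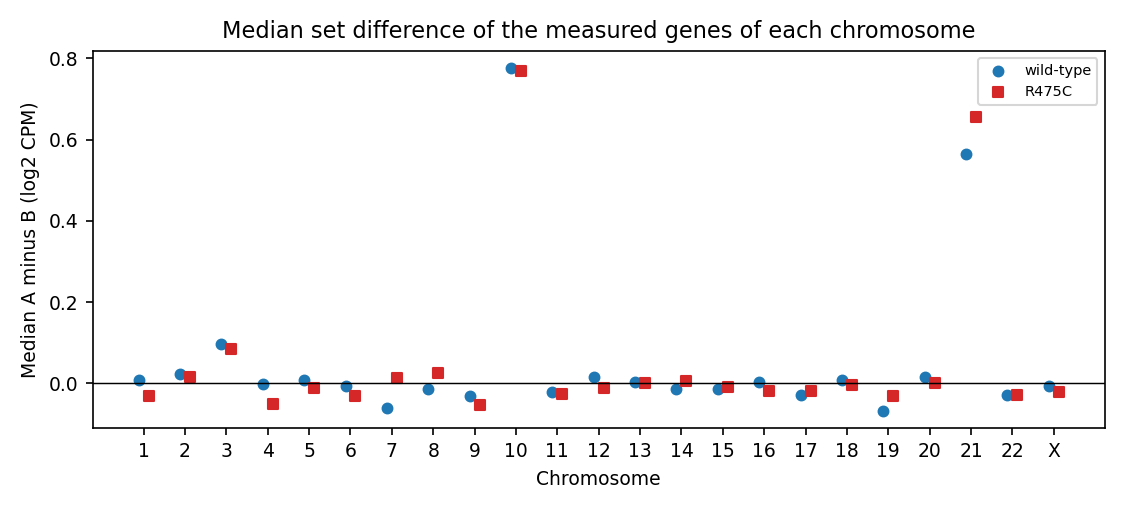
Median set difference (set A minus set B, log2 CPM) of the measured genes of each chromosome, with circles for wild-type and squares for R475C. Chromosome 21 lies at 0.56 and 0.66, chromosome 10 at 0.78 and 0.77, and the others between -0.07 and 0.10.

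Gene by gene, set A lay above set B without overlap in both genotypes for 80 of the 132 measured members, or 60.6%, where the share over genes of other chromosomes was 9.44%. Set A lay below set B without overlap in both genotypes for 1 member, ITGB2, where the share over other chromosomes was 9.45%. The difference was above 0 in both genotypes for 110 members, and for 35.8% of genes of other chromosomes. Since the samples were selected on this contrast, nothing is read from these counts.

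Members were sorted by how d compared with the median of 0.62. A member within 50% of that median on either side was called near (81 members), one with less than 0.5 times the median, or of opposite sign, nearer to zero (27), and one with more than 1.5 times the median beyond (24). The lower limit of 0.31 fell between PRDM15 at 0.30 and WDR4 at 0.32, and the upper limit of 0.93 between ITSN1 at 0.92 and C2CD2 at 0.93, so the groups shade into each other. Among the 82 members with a mean of at least 10 CPM, 57 were near, 14 nearer to zero and 11 beyond. The spread was narrower for these, with the middle 50% between 0.42 and 0.76, than for the 50 members of 1 to 10 CPM, where it ran from 0.31 to 0.93. Among genes of other chromosomes the middle 50% was about as wide, from -0.15 to 0.16 and from -0.37 to 0.29 at these levels. A member nearer to zero or beyond is therefore not read as an exception to the chromosome. Members of other gene types, such as long non-coding RNAs and pseudogenes, spread more widely (middle 50% from -0.01 to 0.92, n = 32) than protein-coding ones (0.45 to 0.81, n = 100).

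The difference was not the same along the chromosome. In groups of 20 measured members in chromosome order, the median d was 0.58 in the first group, which runs from 5.1 to 25.7 Mb, and 0.96 (1.94-fold) in the second, from 28.9 to 32.6 Mb. It was 0.65 from 32.7 to 34.8 Mb, 0.63 from 36 to 39.4 Mb, 0.59 from 39.4 to 44 Mb and 0.51 from 44.3 to 45.6 Mb. The last 12 members, from 45.9 to 46.6 Mb near the end of the long arm, had a median of 0.45 (1.37-fold). The second group thus stood highest, with 13 of its 20 members beyond the upper limit against 1 to 3 in each other group, and from there the medians stepped down toward the end of the arm.

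**Figure D2:**
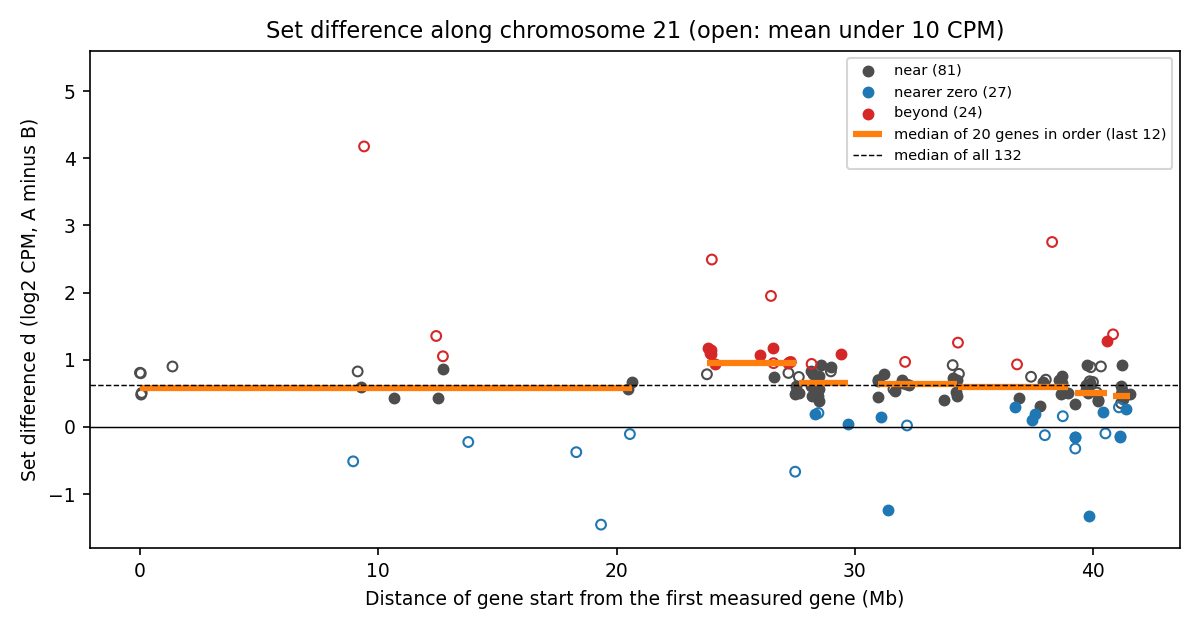
Set difference d (log2 CPM, y axis) of the 132 measured members against the distance of their start from the first measured member in Mb (x axis). Filled points have a mean of at least 10 CPM, orange bars are medians of 20 members in order, and the second bar, at 0.96, lies highest while the last lies at 0.45.

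The second group was high in each sample of set A. Its median level relative to the mean of the wild-type set B samples was 0.92 and 0.87 on the log2 scale in wild-type replicates 1 and 4, and 0.91 and 0.98 in R475C replicates 1 and 3. The 6 samples of set B lay between -0.08 and 0.08. In the other 6 groups the samples of set A lay between 0.34 and 0.68, so all 4 were higher in the second group than in any other.

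The members of at least 10 CPM from LTN1 at 28.9 Mb to URB1 at 32.3 Mb, a stretch set after the values were seen, were 10 genes in a row. LTN1 (a ubiquitin ligase that clears stalled nascent chains), RWDD2B, USP16 (a histone deubiquitinase), CCT8, BACH1 (a haem-regulated repressor), TIAM1 (an exchange factor for Rac), SOD1, SCAF4 (which acts in transcription termination), MIS18A (centromere assembly) and URB1 (ribosome assembly) had d between 0.74 and 1.18, with a median of 1.08 (2.12-fold). The 6 such members that start earlier had a median of 0.58, the 33 from there to 40 Mb a median of 0.60, and the 33 from 40 Mb on a median of 0.48. Without each library in turn, the median of the 10 stayed between 1.005 and 1.09 and that of the 66 later members between 0.51 and 0.55. The limits of the stretch were held fixed, so these values show only that no single library carried its median. They are not a test of the stretch. The median of the 10 was 1.08 in wild-type and 1.05 in R475C.

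Across members, position and d had a Spearman rho of -0.27 (n = 132), and -0.41 among those of at least 10 CPM (n = 82). Set against the wild-type set B samples one library at a time, over the same 82 members, rho was -0.45, -0.23, -0.25 and -0.32 in set A (wild-type replicates 1 and 4, R475C replicates 1 and 3). In set B it was 0.36 in wild-type replicate 5, 0.26 in R475C replicate 4 and -0.18 to -0.06 in the other 4. Libraries of set B thus also sloped, 2 of them the other way, and wild-type replicate 4 and R475C replicate 1 differed little from the lowest of set B. Base composition moves along with position: the GC content of the transcripts rose toward the end of the long arm (rho 0.49). Among members, d fell with GC content, with rho -0.30 over the 132 and -0.43 over the 82 of at least 10 CPM. Over the 82, rho was thus no weaker for GC content than for position. Over genes of other chromosomes, the rho of GC content with d was -0.12. After the GC trend of the other chromosomes was removed, an alternative added after the values were seen, the rho of position with d was -0.35 for the 82, and the second group had a median of 0.96. The trend removed was weaker than the one among members, so this cannot separate position from GC content. These genes share libraries and neighbours and are not independent, so the correlations are descriptions.

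Of the chaperone, ubiquitin and trafficking genes, 15 of 17 measured members lay above set B without overlap in both genotypes, with a median d of 0.63. For this count and those of the lists below, the share was 60.6% of all measured members and 9.44% of genes of other chromosomes. The counts describe the lists, and nothing is read from them. CCT8, a subunit of the chaperonin that folds actin and tubulin (chromosome 21, 29055805 to 29073797, minus strand, GRCh38), was at 518 and 390.1 CPM in set A and 226, 234, 199 and 193 CPM in set B of wild-type. In R475C it was at 432 and 428 CPM against 219 and 156 CPM, and d was 1.15 (2.22-fold). The lowest sample of set A was thus well above the highest of set B.

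TTC3, a ubiquitin ligase, was at 256 and 260.3 CPM in wild-type set A against 147 to 187 CPM in set B, and at 260 and 298 CPM against 141 and 182 CPM in R475C (d 0.69). UBE2G2, a ubiquitin-conjugating enzyme of the endoplasmic reticulum pathway, had a d of 0.63 and SUMO3, a ubiquitin-like modifier, of 0.92. DOP1B, which acts in membrane trafficking, was the member of this list nearest to zero, at 0.14. The partners of CCT8 in the chaperonin are encoded on other chromosomes, and their d ran from 0.05 for CCT3 to 0.32 for CCT6A, with TCP1 at 0.31.

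Of the genes of RNA and ribosome processing, 10 of 12 measured members lay above without overlap in both genotypes, and the median d was 0.76. RRP1B, a nucleolar protein, was at 298 and 231 CPM in wild-type set A against 151 to 189 CPM in set B, and at 349 and 324 CPM against 215 and 183 CPM in R475C (d 0.69). Its relative RRP1 had a d of 0.65, SCAF4 0.74 and WDR4, part of a tRNA methyltransferase, 0.32. PCBP3, an RNA-binding protein, had the largest d of any member of at least 10 CPM, 1.28. It was at 53.0 and 71.6 CPM in wild-type set A, and at 30.6, 12.7, 13.9 and 28.6 CPM in set B. In R475C it was at 69.1 and 70.5 CPM against 37.2 and 36.0 CPM. Its samples did not overlap between the sets, but the wild-type set B samples were themselves uneven.

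Of the 4 receptor genes of the interferon cluster, 3 lay above without overlap in both genotypes, and the median d was 0.62. IFNAR1, a chain of the type I interferon receptor, was at 116 and 88.9 CPM in wild-type set A and 56.3, 66.1, 60.1 and 57.5 CPM in set B. In R475C it was at 109 and 121 CPM against 71.9 and 60.5 CPM (d 0.78). IFNAR2, its partner chain, had a d of 0.84 and IL10RB, shared by the interleukin-10 and interferon lambda receptors, 0.45. IFNGR2, the second chain of the interferon gamma receptor, was the lowest of the 4 at 0.20. It was at 10.5 and 15.1 CPM in wild-type set A and 9.72 to 11.1 CPM in set B, and the sets overlapped in both genotypes. IFNGR2 overlaps TMEM50B in the annotation. The partner chains IL10RA, IFNLR1 and IFNGR1, on other chromosomes, had d of 0.38, -0.59 and -0.17.

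Regulators of transcription and chromatin had a median d of 0.52, and 13 of 17 measured members lay above without overlap in both genotypes. SON, a splicing cofactor of nuclear speckles, was at 859 and 592 CPM in wild-type set A and 506 to 529 CPM in set B, and at 772 and 791 CPM against 612 and 536 CPM in R475C (d 0.45). BRWD1, a bromodomain protein, had a d of 0.73, HMGN1, a nucleosome-binding protein, 0.52 and PRDM15, a zinc-finger regulator, 0.30. RUNX1, picked out after its values were seen, lay near zero at 0.04. It was at 139 and 101 CPM in wild-type set A and 99.4 to 122 CPM in set B, and at 120.3 and 135 CPM against 135 and 128 CPM in R475C, so the sets overlapped in both genotypes. CBFB, the partner of RUNX1 on chromosome 16, had a d of -0.08.

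Among metabolic and transport genes, 6 of 16 measured members lay above without overlap in both genotypes, 5 were nearer to zero and the median d was 0.51. SOD1, which removes superoxide (chromosome 21, 31659622 to 31668931, plus strand), was at 368 and 319 CPM in wild-type set A against 157, 179, 161 and 125 CPM in set B. In R475C it was at 327 and 339.6 CPM against 161 and 129.7 CPM, and d was 1.18 (2.26-fold). GART, an enzyme of purine synthesis, was at 416 and 374 CPM in wild-type set A against 235 to 248 CPM in set B, and at 356 and 349.9 CPM against 229 and 203 CPM in R475C (d 0.71). GART and SON overlap at their ends, so some reads could be shared.

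AGPAT3, an enzyme of phospholipid synthesis, had a d of 0.53 and PFKL, the liver form of phosphofructokinase, 0.34. PFKL was at 108 and 186 CPM in wild-type set A and 105 to 131 CPM in set B, so it overlapped there. LSS, the enzyme that makes lanosterol for cholesterol synthesis (chromosome 21, 46188141 to 46228824, minus strand), did not stand higher in set A. It was at 73.4 and 122 CPM in wild-type set A, at 101, 109, 129.6 and 106 CPM in set B, at 97.5 and 93.1 CPM in R475C set A and at 88.0 and 110.1 CPM in set B (d -0.14). The sets overlapped in both genotypes, and without wild-type replicate 1 its d was 0.04.

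**Figure D3:**
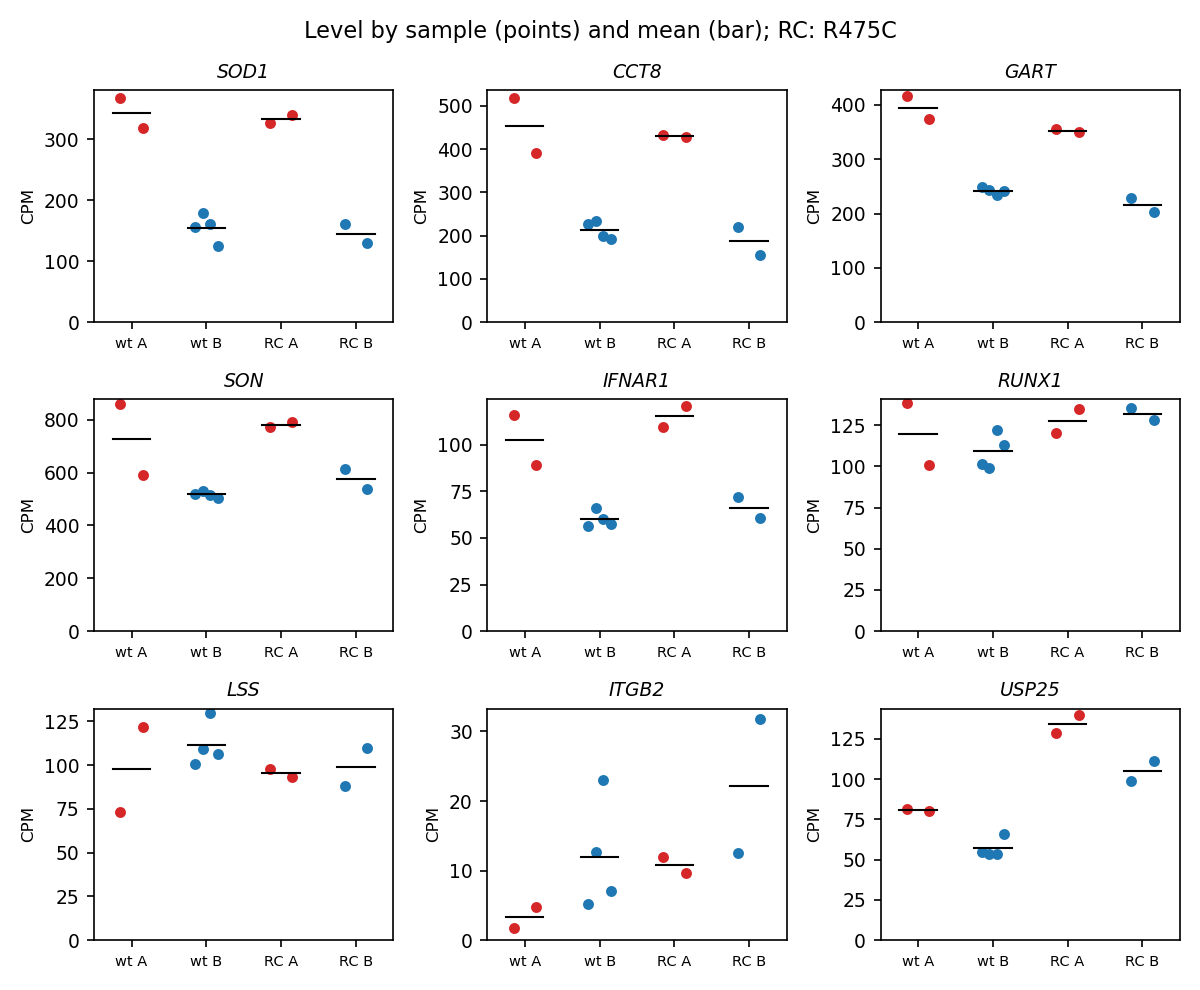
Level in CPM (y axis, from 0) of 9 members in the 4 combinations of genotype and set, with a point for each sample and a bar at the mean. SOD1, CCT8, GART, SON and IFNAR1 are higher in set A in both genotypes, RUNX1 and LSS overlap between the sets, ITGB2 is lower in set A, and USP25 is higher in R475C within each set.

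All 5 measured genes of cell division and DNA replication lay above without overlap in both genotypes, with a median d of 0.57. MCM3AP, a scaffold of mRNA export, was at 334 and 297 CPM in wild-type set A and 196 to 217 CPM in set B, and at 339.9 and 351 CPM against 222 and 228 CPM in R475C (d 0.60). PCNT, a scaffold of the centrosome, had a d of 0.42, DONSON, which acts at replication forks, 0.57 and PTTG1IP, a binding partner of securin, 0.50. MCM3AP and PCNT lie close to LSS at the end of the long arm, where 4 of the last 12 members were nearer to zero.

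Of the kinase and signalling genes only 3 of 14 were measured, and all 3 lay above without overlap in both genotypes. DYRK1A, a kinase that acts on NFAT and on splicing factors, was at 131 and 104 CPM in wild-type set A and 62.5 to 71.5 CPM in set B, and at 108 and 128 CPM against 88.7 and 84.4 CPM in R475C (d 0.63). RCAN1, an inhibitor of calcineurin, was at 31.7 and 36.5 CPM in wild-type set A and 17.9 to 18.7 CPM in set B, and at 42.0 and 41.2 CPM against 17.96 and 16.3 CPM in R475C. RCAN1 had a d of 1.08 although it lies outside the stretch of 10 high genes, as did TIAM1 within it.

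The immune and adhesion genes spread most among the lists, with d from -1.33 to 4.18 over 6 measured members. ITGB2, the beta chain of the leukocyte integrins, was lower in set A: 1.80 and 4.83 CPM in wild-type set A against 5.26, 12.7, 22.96 and 7.07 CPM in set B, and 11.9 and 9.66 CPM against 12.5 and 31.8 CPM in R475C. The sets did not overlap in either genotype, though the gap was narrow, and R475C replicate 4 stood far above the other R475C samples. ITGAL, an alpha chain that pairs with ITGB2 and lies on chromosome 16, had a d of -0.76.

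CLDN14, a tight-junction protein, had a d of -1.24, at 5.12 and 9.78 CPM in wild-type set A and 24.7, 8.41, 14.3 and 28.4 CPM in set B, which overlap, and at 4.60 and 4.499 CPM against 7.67 and 14.8 CPM in R475C, which do not. SAMSN1, an adaptor that restrains B-cell signalling, had the largest d of all measured members. It was at 7.60 and 8.43 CPM in wild-type set A and 0.607 to 3.504 CPM in set B, and at 12.96 and 17.7 CPM against 0.151 and 0.331 CPM in R475C. The sets did not overlap in either genotype, and R475C set B was under 1 CPM. CXADR, a virus receptor and adhesion molecule, had a d of 1.35.

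Of the 5 non-coding genes listed, 2 were measured. MIR155HG, the host transcript of miR-155, was at 73.4 and 53.2 CPM in wild-type set A and 28.9 to 80.6 CPM in set B, so it overlapped there, and at 56.9 and 43.6 CPM against 35.9 and 25.3 CPM in R475C (d 0.56). LINC01684 had a d of -1.45, with -2.40 in wild-type and -0.51 in R475C. The row for MIR155 itself overlaps its host gene and had a mean of 0.71 CPM.

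The members of at least 10 CPM with the lowest d were ITGB2, CLDN14, AP001469.1, AP001062.1, CFAP410 and LSS. AP001469.1 is annotated across LSS on the other strand, and AP001062.1 across CFAP410, a ciliary gene, so these 4 are 2 overlapping pairs and reads could be shared, since whether the counting used strand is not stated in the labels. All 4 had d between -0.14 and -0.15, and the sets overlapped in both genotypes for each. SLC37A1 (d 0.11), DOP1B (0.14), PDE9A and IFNGR2 (both 0.20), SLC19A1, the reduced folate carrier (0.22), and DIP2A (0.26), together with RUNX1, complete the members of that level nearer to zero besides PRDM15. DIP2A and PRDM15 lay above in set A without overlap in both genotypes all the same.

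At the other end, the members of at least 10 CPM with the highest d were PCBP3, SOD1, LTN1, CCT8, RWDD2B and USP16. LTN1 was at 81.7 and 57.6 CPM in wild-type set A and 28.5 to 31.7 CPM in set B, and at 71.3 and 80.6 CPM against 34.6 and 33.1 CPM in R475C (d 1.17). RWDD2B had a d of 1.098 and USP16 of 1.09. All except PCBP3 lie in the stretch of 10 genes.

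Near-identical copies on chromosome 21 make some rows uncertain, because reads that match both copies could be split or dropped. U2AF1, a core splicing factor, held 12 to 134 counts (mean 2.11 CPM, d 0.70, set A above set B without overlap in both genotypes), and its copy U2AF1L5 at most 2 counts. CBS held 91 to 383 counts and CBSL 32 to 253 counts, with d of -0.12 for CBS and 0.90 for CBSL, so the pair disagrees in these rows. SIK1 and SIK1B held at most 32 and 19 counts. CRYAA was at 0 in every sample and CRYAA2 held 3 counts in wild-type replicate 3. U2AF2, the partner of U2AF1 on chromosome 19, had a d of -0.12.

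The partner genes on other chromosomes served as a comparison by function. Of the 17 measured, 1 lay above without overlap in both genotypes (IL10RA) and 2 below (ITGAL and IFNLR1), and their median d was 0.05. Over all measured genes of other chromosomes the shares were 9.44% above and 9.45% below, so nothing is read from these counts.

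The set differences of the genotypes moved together gene by gene, about as closely as on other chromosomes when members of all levels are taken. The wild-type and R475C differences had a Pearson r of 0.66 over the 132 members, against 0.61 over the genes of other chromosomes. Over the 82 members of at least 10 CPM it was 0.83, and other chromosomes were not computed at that level. The median absolute gap between the differences was 0.20 over the 132. The samples were selected on this contrast in both genotypes, so these values are descriptions. Whether a gene's set difference itself differs between the genotypes was tested as an interaction in edgeR's quasi-likelihood fit over all 17045 genes kept. None of the 156 members kept passed after Benjamini-Hochberg adjustment, where 0.387% of all genes did. At an unadjusted p under 0.05 there were 13 of the 156, against 5.44% of all genes, and 8 of the 13 were larger in R475C.

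The lowest p-value among the members was that of CBR1, a carbonyl reductase. It was at 31.4 and 39.6 CPM in wild-type set A and 27.7 to 33.2 CPM in set B, but at 33.6 and 34.6 CPM against 13.9 and 16.9 CPM in R475C. The difference was 0.21 in wild-type and 1.15 in R475C (interaction 0.94, SE 0.23, edgeR adjusted p = 0.169). DESeq2 called CBR1 (0.96, SE 0.25, adjusted p = 0.0151) and AP000688.1, which overlaps it (1.39, SE 0.38, adjusted p = 0.0305). SAMSN1 had differences of 2.50 and 5.85 (edgeR adjusted p = 0.18). CBR1 and AP000688.1 were picked out after their values were seen.

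**Figure D4:**
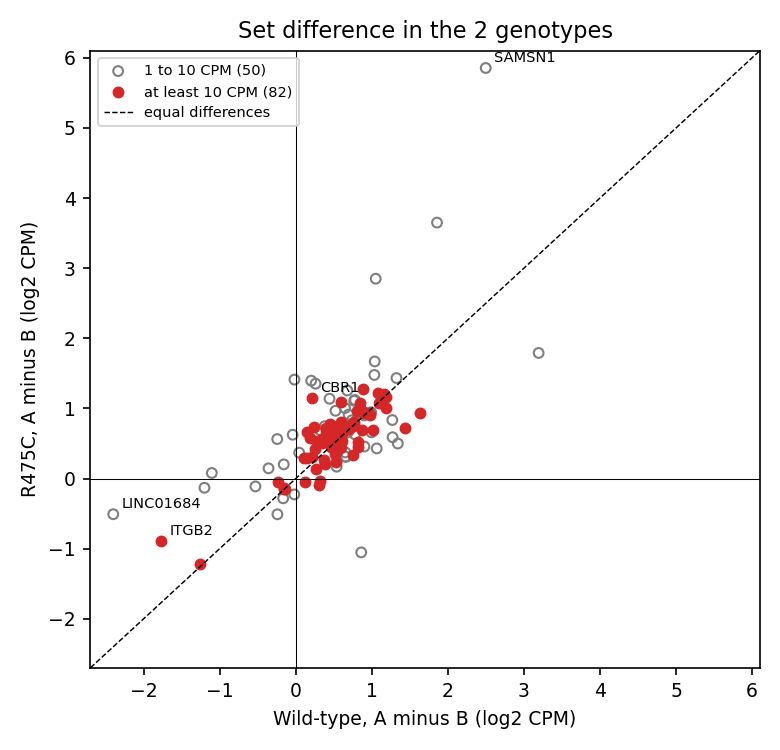
Set difference in R475C (y axis) against that in wild-type (x axis), both in log2 CPM, for the 132 measured members, filled for the 82 of at least 10 CPM, with the dashed line where both are equal. Most points gather around 0.56 on the x axis and 0.66 on the y axis, CBR1 lies above the line at 0.21 and 1.15, and ITGB2 and LINC01684 lie below 0 on both axes.

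In the comparison the study was designed for, R475C against wild-type, few members were called. In edgeR's quasi-likelihood test with genotype as the only term, 3 of the 156 members kept passed at an adjusted p of 0.05, all higher in R475C, where 2.46% of all genes passed. At an unadjusted p under 0.05 there were 12, of which 10 were higher, against 17.3% of all genes. This fit has no term for the set, so the set difference of the members counts as spread within each genotype. The low count is therefore not read as a result about the chromosome. The median log2 fold change of the measured members was 0.04, against 0.00 over all 14560 measured genes. Within set A the median difference between genotypes was 0.00 and within set B -0.10.

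USP25, a deubiquitinating enzyme that acts in inflammatory signalling (ENSG00000155313.15; chromosome 21, 15730025 to 15880069, plus strand), rose in R475C. Wild-type replicates 1 to 6 held 81.6, 54.8, 53.3, 80.3, 53.8 and 66.0 CPM and the R475C replicates, in order, 128, 98.6, 139.5 and 111 CPM, or 65.0 ± 13.3 (SD, n = 6) against 119 ± 18.1 (n = 4). Every R475C sample was above every wild-type sample, and the log2 fold change was 0.88 (SE 0.15, edgeR adjusted p = 0.0136). Its level also followed the sets in both genotypes, with a d of 0.43, so its highest level was in R475C set A and its lowest in wild-type set B. The genotype difference was 0.74 (SE 0.15, adjusted p = 0.0364) among the set A samples alone and 0.88 (SE 0.12, adjusted p = 0.00862) among the set B samples alone. The call was lost without R475C replicate 1 (0.84, adjusted p = 0.05001) and without R475C replicate 3 (0.79, adjusted p = 0.0557).

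LINC01694, a long non-coding RNA, rose from 0.611 ± 0.341 CPM (SD, n = 6) to 2.83 ± 1.29 CPM (n = 4), a log2 fold change of 2.20 (SE 0.41, edgeR adjusted p = 0.0196). The 4 R475C samples were at 1.34, 4.40, 2.39 and 3.20 CPM, and wild-type replicate 4 reached 1.28 CPM. The call was lost without wild-type replicate 3 or 6 and without R475C replicate 2 or 3, and among the set A samples alone (1.07). BACE2, an aspartic protease related to the beta-secretase, rose at a low level and averaged 0.137 ± 0.184 CPM in wild-type (SD, n = 6) and 1.60 ± 0.876 CPM in R475C (n = 4). Its log2 fold change was 3.46 (SE 0.81, edgeR adjusted p = 0.048). It was not called in 8 of the 10 fits that leave out 1 sample, nor among the set B samples alone.

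With the set as a further term in the fit, 9 of the 156 members kept were called, 5 higher and 4 lower in R475C, against 6.62% of all genes. The higher ones were USP25, LINC01694, BACE2, BRWD1 (0.48, SE 0.09, adjusted p = 0.00866) and C21orf91 (0.59, SE 0.12, adjusted p = 0.0154). The lower ones were PDXK, which makes the active form of vitamin B6 (-0.81, SE 0.20, adjusted p = 0.0343), BTG3 (-0.37, SE 0.09, adjusted p = 0.0329), HSPA13 (-0.40, SE 0.11, adjusted p = 0.0444) and AP000295.1 (-0.37, SE 0.10, adjusted p = 0.0486). PDXK was at 103 and 104 CPM in R475C set A and 52.6 and 73.7 CPM in set B. In wild-type it was at 125 and 172 CPM in set A and 82.2 to 170 CPM in set B. The genotypes thus overlapped with the sets pooled, but not within either set.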

How the data were processed

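The measured values are raw counts of reads per gene, deposited by the authors as 1 table of 10 samples. Reads were processed with cutadapt 1.10, STAR 2.6.0c and featureCounts (version not given), per the submitters' processing notes. The genome build, the annotation and the use of strand in counting are not stated in the labels. Coordinates and gene types came from GENCODE release 29 (GRCh38), whose IDs matched all 58721 rows.

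Samples were grouped by the genotype in their titles. Levels are CPM scaled by TMM factors (edgeR 4.0.16 in R 4.3.3), and log2 CPM used a prior count of 1. The low-count filter was edgeR's filterByExpr (minimum count 10, minimum total 15). Genotype, and genotype by set, were tested with edgeR's quasi-likelihood test, two-sided, with Benjamini-Hochberg adjustment over the 17045 genes kept and a threshold of 0.05. The set difference has no test, because the samples were selected on it. The scripts were tested on simulated data first.

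The members, gene lists and rules were chosen with earlier results of these data known. Named genes are the up to 4 members of each list with the highest mean CPM, the 6 lowest and 6 highest by d among those of at least 10 CPM, members past a test, and genes with a near-identical copy. All others were named after their values were seen.

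Alternatives were RLE and library-size scaling, TMM without chromosome 21, other low-count filters and level floors, protein-coding members, members that overlap no gene, a prior count of 5, DESeq2 1.42.0, the set as a term, the replicate number as a block, and leaving out each sample. Added after seeing the data were a GC correction (loess span 0.5) and each set alone. One B-cell marker of the list is not reported here.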

Additional observations from a re-analysis of the deposited data

Results flagged for a closer look

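In 90 groups of 4 or 6 samples checked, 6 held a sample far from the others, where chance flags about 1 in 20. In wild-type these were IFNGR2 at 15.05 CPM in replicate 4, SON at 858.8 CPM in replicate 1, PFKL at 185.7 CPM in replicate 4, AP001062.1 at 19.15 CPM in replicate 5 and LINC01694 at 1.278 CPM in replicate 4. In R475C it was ITGB2 at 31.81 CPM in replicate 4, the shallowest library. SON overlaps GART, DONSON and MIR6501 in the annotation, and AP001062.1 overlaps CFAP410. SON, PFKL and IFNGR2 reached these values in samples of set A, and AP001062.1 in a sample of set B.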

How the results depend on the processing

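The median set difference of the members stayed above 0 in both genotypes under every alternative run. Since the samples were selected on this contrast, its staying above 0 is no test, and the values show only how its size moved. In wild-type the median was 0.53 with library-size scaling, 0.55 with no level floor, 0.58 for protein-coding members and 0.62 for members that overlap no gene. It was 0.55 with a prior count of 5, 0.55 with the GC trend removed, and 0.55 to 0.57 without each sample in turn. In R475C it was 0.63 with no level floor and 0.60 to 0.64 without each sample in turn. Of the set differences of named genes recomputed, 655 kept their sign and stayed within the spread between samples, and 5 turned sign, all near zero and all when 1 sample was left out. AP001469.1 ranged from -0.35, with wild-type replicate 4 left out, to 0.041, with wild-type replicate 1 left out, and LSS from -0.32 to 0.041 likewise. LINC01694 ranged from -0.39 to 0.19 as these were left out in the same order, and was at 0.11 without R475C replicate 1 and 0.02 without R475C replicate 2. The cause was not tested. For genotype, 3 members were called, against 5 with DESeq2, 9 with the set as a term, 5 among the set B samples alone and 0 to 4 without each sample in turn. The replicate block, on the samples whose number occurs in both genotypes, called 0 members and 0 of all genes. Samples with the same number had deviations that correlated at 0.42, 0.22, -0.33 and -0.27 for replicates 1, 2, 3 and 4. Replicates 1 and 2 lie in the same set in both genotypes, and replicates 3 and 4 in opposite sets. These values therefore cannot tell whether the numbers pair the samples. Over all genes 419 were called, against 1150 with DESeq2, 1128 with the set as a term and 142 to 794 without each sample. The interaction called 0 members, and 2 with DESeq2. Over all genes it called 66, against 173 with DESeq2 and 31 to 75 without each sample. R475C replicate 4 was the shallowest library, with 8928539 counts.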

Other observations

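The genes of other chromosomes whose log2 CPM over the 10 samples followed the mean of the chromosome 21 members most closely were PSAP (Pearson r 0.992, n = 10), ASCC1 (0.991), UROS (0.988), NDRG3 (0.987) and ANAPC16 (0.986), out of 9835 genes of at least 10 CPM. PSAP, which encodes the precursor of the saposins, ASCC1, UROS, an enzyme of haem synthesis, and ANAPC16, a subunit of the anaphase-promoting complex, lie on chromosome 10, and NDRG3 lies on chromosome 20. Of the 100 closest genes, 67 lie on chromosome 10. The samples share libraries and the sets, so these values are descriptions.

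Within chromosome 21, set B was not quite level between the genotypes. The median of the measured members relative to the wild-type set B samples was -0.12 in R475C replicate 2 and -0.06 in R475C replicate 4, and 0.01 to 0.02 in the 4 wild-type samples of set B, each set against the other 3. Over genes of other chromosomes the same medians ran from -0.01 to 0.02. In the first group of 20 members in chromosome order, R475C replicates 2 and 4 were at -0.32 and -0.49. That group had a median level of 5.18 CPM, the lowest of the 7 groups. Over the 6 members of at least 10 CPM that start before LTN1, the medians of R475C replicates 2 and 4 were -0.10 and -0.54.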
